A study of Homo sapiens with 12 samples.

Results

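STING1, CGAS, IRAK3, MYD88, TICAM1, MAVS, IRF3 and IRF7 are 8 genes of innate sensing, out of 20037 protein-coding genes placed on the hg38 genome. For each gene every measured CpG in its span and in the 1500 bp on both sides was taken, which gave 899 CpGs with a 5-methylcytosine (5mC) level and 883 with a 5-hydroxymethylcytosine (5hmC) level. STING1 and IRAK3 were chosen by their 5mC difference between the conditions at a gene end, so their 5mC is described here without a test. The other 6 genes entered by pathway.

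The cells were SV-HUC-1, a human urothelial epithelial line immortalised with SV40. They had been kept for 3 days with DCBQ (2,6-dichloro-1,4-benzoquinone, a disinfection byproduct of drinking water) or, as control, with blank solution. Each condition had 3 reduced representation bisulfite (RRBS) and 3 oxidative RRBS libraries, the deposited tables hold 3 columns per condition and mark, and the question is whether DCBQ exposure alters either mark. A single cell line was used. Separate cultures are not stated for the samples of a condition, so the spread behind each p-value may be technical.

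Cells detect foreign or misplaced nucleic acid through several routes. cGAS binds DNA in the cytosol and makes a cyclic dinucleotide that activates STING, MAVS passes on signals from the RNA sensors RIG-I and MDA5, and MyD88 and TRIF (encoded by TICAM1) pass on signals from Toll-like receptors, with IRAK3 as an inhibitor on the MyD88 arm. These routes end on transcription factors such as IRF3, IRF7 and NF-kB, which drive interferon and cytokine genes. 5mC at a CpG-rich gene start usually goes with a silent gene, gene bodies of active genes are often methylated, and 5hmC is made from 5mC by TET enzymes.

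The promoter sequences of the Toll-like receptor arm are shown because 5mC at the starts of IRAK3 and MYD88 did not overlap between the conditions. Both come from RefSeq (GRCh38.p14), whose promoter table held 4 of the 8 genes, namely IRAK3, MYD88, TICAM1 and MAVS. CpGs with a measured 5mC level are in capitals. The group of MYD88 CpGs that was higher in DCBQ without overlap, 1237 to 808 bp upstream, lies outside the printed bases. The first 2 lines are the 250 bases upstream of each start (chr12:66188964-66189213 and chr3:38138411-38138660, both plus strand), and the last is a 30-base stretch just inside IRAK3 (chr12:66189222-66189251, plus strand) that holds its CpGs at 8, 10, 21, 29 and 35 bp past the start.
IRAK3 upstream: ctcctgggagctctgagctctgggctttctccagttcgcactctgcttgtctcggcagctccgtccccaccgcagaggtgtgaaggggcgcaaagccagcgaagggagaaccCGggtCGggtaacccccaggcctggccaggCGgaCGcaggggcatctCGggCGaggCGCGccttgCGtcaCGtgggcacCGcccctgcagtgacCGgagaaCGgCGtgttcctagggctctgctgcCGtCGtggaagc
MYD88 upstream: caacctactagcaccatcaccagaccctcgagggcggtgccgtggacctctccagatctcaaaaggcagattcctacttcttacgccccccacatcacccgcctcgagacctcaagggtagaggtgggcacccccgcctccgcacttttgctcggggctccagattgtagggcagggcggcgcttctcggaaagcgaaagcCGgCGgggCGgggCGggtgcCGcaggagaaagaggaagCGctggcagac
IRAK3 past the start: CGCGgttgtgtaaCGgcctgtCGcaggCGt

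Across the genome DCBQ samples read slightly less 5mC. Mean 5mC over 3689712 CpGs was 54.1% ± 0.098 in DCBQ and 54.5% ± 0.154 in control cells (SD, n = 3 each), with an exact two-sided permutation p of 0.1, the smallest that 3 against 3 samples allow. Mean 5hmC over 3534314 CpGs was 3.47% ± 0.142 in DCBQ and 3.37% ± 0.064 in control cells (SD, n = 3 each, exact permutation p = 0.4). Depth per CpG is unknown, and samples correlated across CpGs at 0.968 to 0.972 for 5mC but only 0.197 to 0.231 for 5hmC. As a check of the cell type, the starts of 10 of 15 measured epithelial and urothelial markers, among them KRT5, EPCAM and CDH1, had under 20% 5mC, whereas KRT17, TP63 and UPK3A had over 60%. Starts over 60% made up 4 of 8 measured leukocyte markers and 4 of 5 fibroblast and endothelial markers. Under 20% were 1 leukocyte marker, CORO1A, and 0 of the fibroblast and endothelial markers.

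Gene starts were measured as the mean over CpGs from 1500 bp before to 500 bp after the start, and bodies from there to the other gene end, with at least 5 CpGs. For CGAS, IRF3, IRF7 and STING1 no strand was available, and the gene end with more CpGs stood in for the start, a choice that matched the annotated start in 87.6% of 9830 genes where it could be checked. Differences are DCBQ minus control, in percentage points. With limma and Benjamini-Hochberg adjustment over all genes, an adjusted p under 0.05 was reached by 0 of 15364 starts (0.0%) and 0 of 16688 bodies (0.0%) for 5mC, and by 0 of 15248 starts (0.0%) and 0 of 16554 bodies (0.0%) for 5hmC. An unadjusted p under 0.05 was reached by 1023 starts (6.66%) and 1451 bodies (8.69%) for 5mC, and by 744 starts (4.88%) and 885 bodies (5.35%) for 5hmC. No member was called by this test.

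Among the member starts the 5mC levels covered a wide range. TICAM1, MAVS and IRF3 had nearly unmethylated starts, MYD88 was low, IRAK3 and IRF7 lay near 20%, and CGAS lay near 45%. Among the genes that entered by pathway, the groups did not overlap at the start of MYD88, which was higher in DCBQ. Over all starts tested, 3.7% had all DCBQ samples above all controls and 8.28% had them below. The start of IRAK3 was also higher without overlap, but IRAK3 was chosen by that difference and nothing is read from it against this share. At the bodies, MAVS was higher in DCBQ and IRF7 lower, without overlap, beside 2.27% of all bodies that were higher and 13.7% that were lower in this way. The STING1 body was higher by 0.758 points without overlap, or -1.75 points with the median over CpGs, but it holds 6 of the 8 CpGs of the end by which STING1 was chosen.

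**Figure D1:**
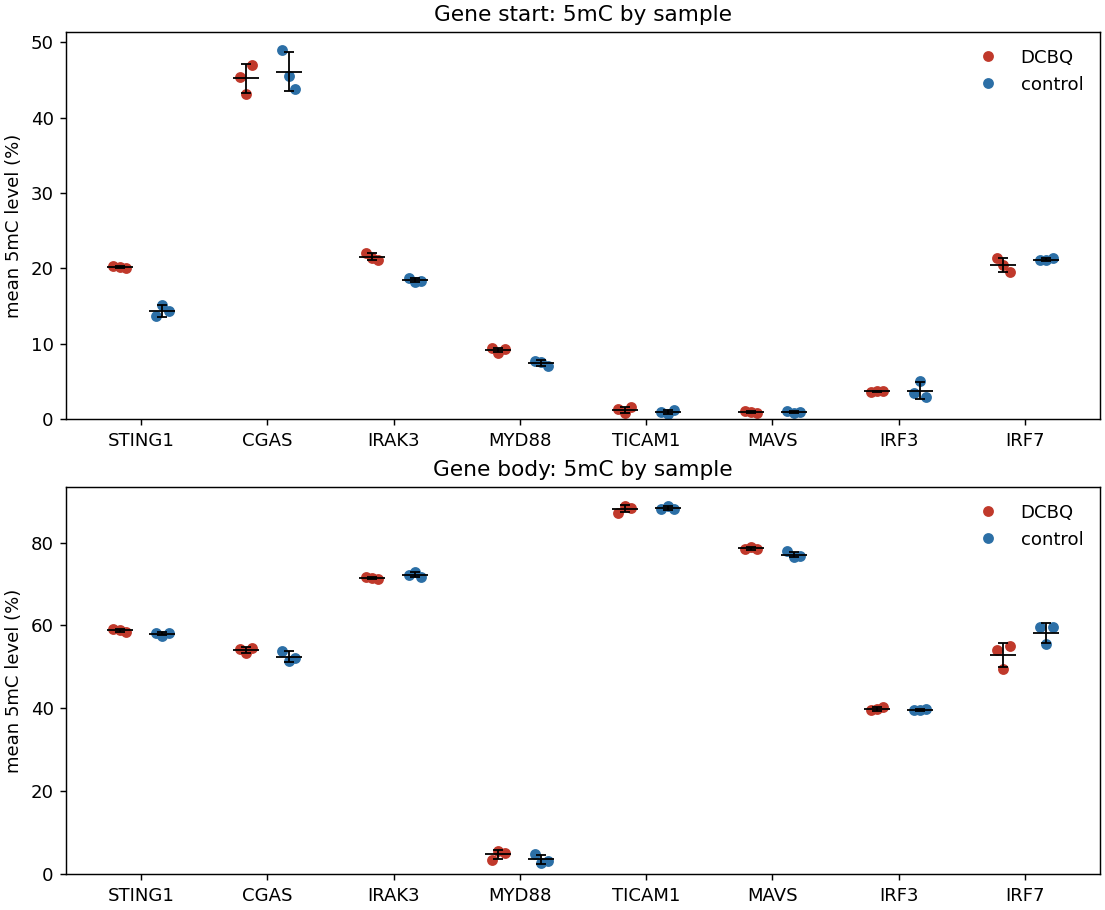
Mean 5mC level (%) of each gene at its start (top) and in its body (bottom), with 1 point per sample, DCBQ left of control, and the mean with SD as black bars. For STING1 the upper panel shows the 8 CpGs within 1000 bp of its higher-coordinate end, 6 of which also count in its body, and the MYD88 body rests on 4 CpGs. In the upper panel the groups stand apart at MYD88, beside 3.7% of all starts that were higher in DCBQ in this way. They also stand apart at STING1 and IRAK3, which were chosen by their 5mC difference. The STING1 window was chosen after the data were seen.

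CGAS (chromosome 6, 73423711 to 73452297), the cytosolic DNA sensor, did not separate the conditions in the mean of its start or of its body. Its start, with 48 CpGs, read 45.4%, 43.2% and 47.0% 5mC in DCBQ samples and 48.9%, 45.5% and 43.8% in controls. The difference was -0.88 points (limma SE 1.63, adjusted p = 0.955). The window means overlapped. Its body, with 96 CpGs, differed by 1.63 points (limma SE 0.767, adjusted p = 0.611), again with overlap. Within the body, a cluster of 7 CpGs (73429682 to 73429750) read 77.4%, 81.2% and 81.0% in DCBQ samples and 76.5%, 76.9% and 76.0% in controls, without overlap. Clusters were formed in the members only, so no share over the genome stands beside this or any later cluster, and none was tested.

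The CGAS values hide a steep gradient along the gene. A dense run of 76 measured CpGs, from 161 to 1009 bp past the stand-in start, averaged 23.8% in DCBQ and 23.4% in control cells, while the 5 CpGs from 799 to 736 bp upstream averaged 87.8% in DCBQ and 89.0% in control cells. Within that run the CpG with the largest separated difference, 713 bp past the start (position 73451584), read 26.3%, 11.4% and 13.0% in DCBQ samples and 8.9%, 0.0% and 4.8% in controls. 5hmC at this CpG was 0 in all 3 DCBQ samples and 5.36%, 9.26% and 9.68% in controls. The 5hmC of the CGAS start averaged 5.24% ± 1.41 in DCBQ and 4.32% ± 1.52 in control cells (SD, n = 3 each, limma adjusted p = 0.983). In the body the largest separated 5hmC difference was 22553 bp past the start, with 25.0%, 2.80% and 5.71% in DCBQ samples and 0.0%, 2.56% and 1.10% in controls.

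STING1 (chromosome 5, 139475533 to 139482758) encodes the adaptor that cGAS activates. It held 27 CpGs with 5mC. The end with more measured CpGs is the lower-coordinate one, with 9 CpGs against 3 at the other, but STING1 is known to be transcribed from its higher-coordinate end. Values were therefore also taken within 1000 bp of that end, a window chosen after the data were seen. There the 8 CpGs averaged 20.3%, 20.2% and 20% 5mC in DCBQ samples and 13.6%, 15.1% and 14.3% in controls. The difference was 5.8 points, with no overlap, and it ran between 5.44 and 6.19 points when each sample was left out in turn. As STING1 was chosen by its 5mC difference at a gene end, that range is no support for it.

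The CpGs at that end of STING1 differed strongly among themselves. The CpG 98 bp outside the gene (position 139482856) read 60%, 55.6% and 55.2% in DCBQ samples and 43.8%, 41.7% and 46.3% in controls. It is the CpG of this end at which the groups separated, and it lies inside the span of LOC101059986, a pseudogene that begins at 139482849. The CpG 10 bp outside the gene read 33.3%, 28.0% and 14.8% in DCBQ samples and 7.1%, 16.1% and 14.3% in controls. At 694 bp inside the gene the levels were 33.3%, 45.5% and 50% in DCBQ samples and 24.0%, 27.8% and 35.7% in controls. Both of these overlapped, although their mean differences, 12.9 and 13.8 points, were close to the 13.0 points of the separated CpG. The CpGs at 511, 537, 576 and 607 bp inside read 10.8% or less in all but 1 sample, the exception being 13.2% in a DCBQ sample at 537 bp.

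**Figure D2:**
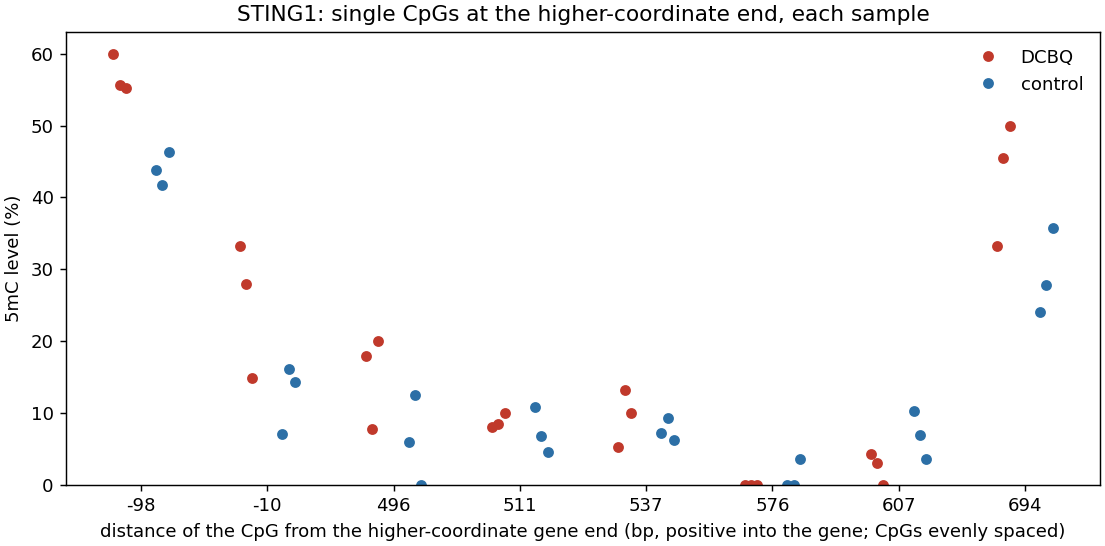
5mC level (%) of the 8 CpGs of STING1 within 1000 bp of its higher-coordinate end, in each of 3 DCBQ samples (left of each pair) and 3 controls, ordered by distance from that end in bp with positive values inside the gene. At -98 bp every DCBQ sample is at 55.2% or more and every control at 46.3% or less, and from 511 to 607 bp both groups are low.

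Away from that end STING1 was densely methylated in both conditions. The other 19 CpGs averaged 83.7% in DCBQ and 83.2% in control cells with overlap, and the window at the lower-coordinate end read 80.8% in DCBQ and 79.0% in control cells, also with overlap. A cluster of 5 CpGs mid-gene (139478341 to 139478490) went the other way, with 94.4%, 91.1% and 91.8% 5mC in DCBQ samples and 95.6%, 95.4% and 97.0% in controls. At 4 of these CpGs 5hmC averaged 2.78%, 5.68% and 5.88% in DCBQ samples and 1.56%, 1.92% and 0.0% in controls. The groups did not overlap for either mark in this cluster. In the lower-coordinate window the CpG at 139475883 was the separated one, with 100% in all 3 DCBQ samples and 96.4%, 96.4% and 92.5% in controls.

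5hmC over the whole of STING1, with 24 CpGs, averaged 2.95%, 2.72% and 2.58% in DCBQ samples and 4.30%, 4.41% and 3.87% in controls. All DCBQ samples lay below all controls, a difference of -1.44 points (SE 0.195 from the spread of the samples). Whole spans were not measured across all genes, so no share stands beside this and it was not tested. STING1 was also chosen by its 5mC, and the 5hmC levels may not be independent of that mark. The windows tested across all genes did not separate. The window at the lower-coordinate end differed by -2.07 points (limma SE 0.997, adjusted p = 0.961), or -0.977 without control replicate 1, and the body by -0.30 points (limma SE 0.662, adjusted p = 0.997). At the higher-coordinate end, 7 CpGs averaged 3.58% ± 0.979 in DCBQ and 6.34% ± 1.71 in control cells (SD, n = 3 each), with overlap. Within it the CpG 607 bp inside the gene had 4.35%, 9.09% and 5.0% in DCBQ samples and 0 in all 3 controls.

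MAVS (chromosome 20, 3846834 to 3876118), the mitochondrial adaptor of the RNA sensors, had an unmethylated start and a methylated body. Its start, with 75 CpGs, read 0.997%, 0.864% and 0.756% 5mC in DCBQ samples and 1.03%, 0.772% and 0.936% in controls, with overlap (limma adjusted p = 0.978). The body, with 79 CpGs, read 78.4%, 78.9% and 78.4% in DCBQ samples and 77.9%, 76.6% and 76.9% in controls. Every DCBQ sample was above every control, by 1.46 points on average (limma SE 0.525, adjusted p = 0.564). 5hmC of the body went the opposite way, with 2.45%, 3.12% and 3.48% in DCBQ samples and 4.62%, 4.26% and 4.18% in controls (difference -1.33 points, limma SE 0.456, adjusted p = 0.927). Those groups did not overlap either, beside 6.35% of all bodies with 5hmC higher and 3.53% with 5hmC lower in DCBQ without overlap.

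Of 9 CpG clusters of MAVS, 5hmC separated the groups in 1, a cluster of 20 CpGs in the body (3853134 to 3853410). It read 3.21%, 5.10% and 5.66% 5hmC in DCBQ samples and 6.93%, 6.91% and 6.76% in controls. Its 5mC overlapped, at 81.6% in DCBQ and 80.1% in control cells. How often clusters separate across the genome was not measured, so the count of separated clusters is not read as a result. The largest separated 5mC difference at 1 CpG of MAVS, 4046 bp past the start, was 94.1%, 100% and 100% in DCBQ samples and 78.6%, 90.9% and 92.9% in controls. For 5hmC it was 19296 bp past the start, at 4.76%, 10% and 8.33% in DCBQ samples and 0 in all 3 controls, against the direction of the body as a whole.

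MYD88 (chromosome 3, 38138661 to 38143022) encodes the adaptor shared by most Toll-like receptors and the interleukin-1 receptor. Its start, with 43 CpGs, read 9.36%, 8.80% and 9.27% 5mC in DCBQ samples and 7.70%, 7.57% and 7.04% in controls. Every DCBQ sample was above every control, and the difference was 1.71 points (limma SE 0.33, unadjusted p = 0.00167, adjusted p = 0.469 over all starts). With a window of 500 bp on both sides of the start the difference was 0.049 points.

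The 17 CpGs from 1237 to 808 bp upstream of MYD88 averaged 21.3%, 21.1% and 22.6% in DCBQ samples and 17.7%, 17.7% and 16.9% in controls, without overlap. The 26 CpGs from 49 bp upstream to 223 bp past the start averaged 0.965% in DCBQ and 0.917% in control cells. In the printed promoter 5mC was measured at 6 CpGs, all within 49 bp of the start. In the upstream group, the CpG 982 bp before the start (position 38137679) read 43.8%, 42.9% and 45.5% in DCBQ samples and 26.7%, 39.5% and 18.5% in controls. A further CpG of the group, 1034 bp upstream, read 31.5%, 41.8% and 46.4% in DCBQ samples and 29.5%, 21.1% and 28.2% in controls. Of the CpGs between these, the one at 1007 bp upstream overlapped, at 26.2% in DCBQ and 29.6% in control cells.

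Hydroxymethylation of the MYD88 start averaged 1.71% ± 0.581 in DCBQ and 1.66% ± 0.702 in control cells (SD, n = 3 each, limma adjusted p = 0.996). The CpG 49 bp upstream, the leftmost in capitals in the printed sequence, separated the groups in both marks, in opposite directions. It read 1.7%, 0.0% and 3.2% 5mC in DCBQ samples and 3.4%, 3.6% and 7.6% in controls, with 6.90%, 6.15% and 5.17% 5hmC in DCBQ samples and 4.26%, 0.0% and 0.0% in controls. The body of MYD88 held 4 CpGs, too few to be tested.

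TICAM1 (chromosome 19, 4815932 to 4831712), which encodes the TRIF adaptor of TLR3 and TLR4, showed no separation at its start or in its body. The start, with 31 CpGs, read 1.38%, 0.787% and 1.56% 5mC in DCBQ samples and 0.884%, 0.677% and 1.19% in controls. The body, with 75 CpGs, averaged 88.2% ± 0.881 in DCBQ and 88.4% ± 0.417 in control cells (SD, n = 3 each, limma adjusted p = 0.938). The groups overlapped at both. In a cluster of 12 CpGs near the 3′ end (4816853 to 4817071) 5hmC read 0.833%, 1.67% and 1.11% in DCBQ samples and 3.19%, 3.97% and 2.89% in controls, without overlap. Its 5mC overlapped, at 96.0% in DCBQ and 94.7% in control cells. The largest separated difference at 1 CpG was 4640 bp past the start for 5mC, with 60.9%, 58.8% and 58.8% in DCBQ samples and 55.6%, 51.7% and 31.6% in controls. For 5hmC it was at 14859 bp, inside that cluster, with 0.0%, 0.0% and 13.3% in DCBQ samples and 16.7%, 29.4% and 16.7% in controls.

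IRAK3 (chromosome 12, 66189214 to 66254622), also called IRAK-M, encodes an inhibitor of Toll-like receptor signalling. Its start, with 70 CpGs, read 22.03%, 21.4% and 21.1% 5mC in DCBQ samples and 18.7%, 18.2% and 18.3% in controls. All DCBQ samples lay above all controls, by 3.10 points (SE 0.315 from the spread of the samples). Under alternative settings the difference ran between 2.68 and 3.30 points. Settings that change only the spread or the set of genes fitted cannot move it. IRAK3 was chosen by this difference, so the range is a description and no support for it.

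The IRAK3 difference was present both at a methylated stretch upstream and in the CpG-dense core. The 8 CpGs from 673 to 533 bp upstream averaged 87.4%, 88.7% and 86.9% in DCBQ samples and 84.2%, 85.2% and 83.2% in controls. The 62 CpGs from 138 bp upstream to 328 bp past the start averaged 13.6%, 12.7% and 12.6% in DCBQ samples and 10.3%, 9.52% and 9.98% in controls. The groups did not overlap in either stretch.

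Single CpGs in the printed stretch just inside IRAK3 carried some of the largest separated differences of the gene start. The CpG at 10 bp past the start read 35.3%, 28.6% and 28.0% in DCBQ samples and 13.6%, 13.6% and 8.8% in controls. At 29 bp it read 37.3%, 31.0% and 33.3% in DCBQ samples and 15.3%, 18.2% and 14.7% in controls. At 35 bp it read 29.4%, 23.8% and 27.5% in DCBQ samples and 15.3%, 12.1% and 11.8% in controls. The gap at each of these 3 CpGs was wider than the range within a group, whereas the CpG at 8 bp, directly beside the one at 10 bp, averaged 7.43% in DCBQ and 5.57% in control cells with overlap. At 139 bp the levels were 33.3%, 8.0% and 25.0% in DCBQ samples and 6.7%, 0.0% and 0.0% in controls, separated but with a wide spread.

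5hmC was lower where 5mC was higher at the CpGs 10 and 29 bp past the IRAK3 start. At 10 bp 5hmC read 0.0%, 2.38% and 0.0% in DCBQ samples and 4.44%, 4.44% and 6.45% in controls. At 29 bp it read 1.96%, 2.38% and 0.0% in DCBQ samples and 13.3%, 8.89% and 12.9% in controls. At 35 bp, where 5mC was also higher, 5hmC overlapped and averaged 2.89% in DCBQ and 2.96% in control cells. The CpG 138 bp upstream, the leftmost capital CpG of the printed promoter, had both signs turned round. It read 3.0%, 3.8% and 5.7% 5mC in DCBQ samples and 8.3%, 8.9% and 8.7% in controls, with 3.23%, 3.85% and 6.67% 5hmC in DCBQ samples and 0 in all 3 controls. The 5hmC of the whole start averaged 4.18% ± 1.30 in DCBQ and 5.09% ± 1.53 in control cells (SD, n = 3 each), with overlap (limma adjusted p = 0.983). Within it, 5hmC at 90 bp was 0 in all 3 DCBQ samples and 7.14%, 10% and 40% in controls. At 308 and 310 bp it was higher in DCBQ without overlap, by 9.08 and 15.1 points.

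**Figure D3:**
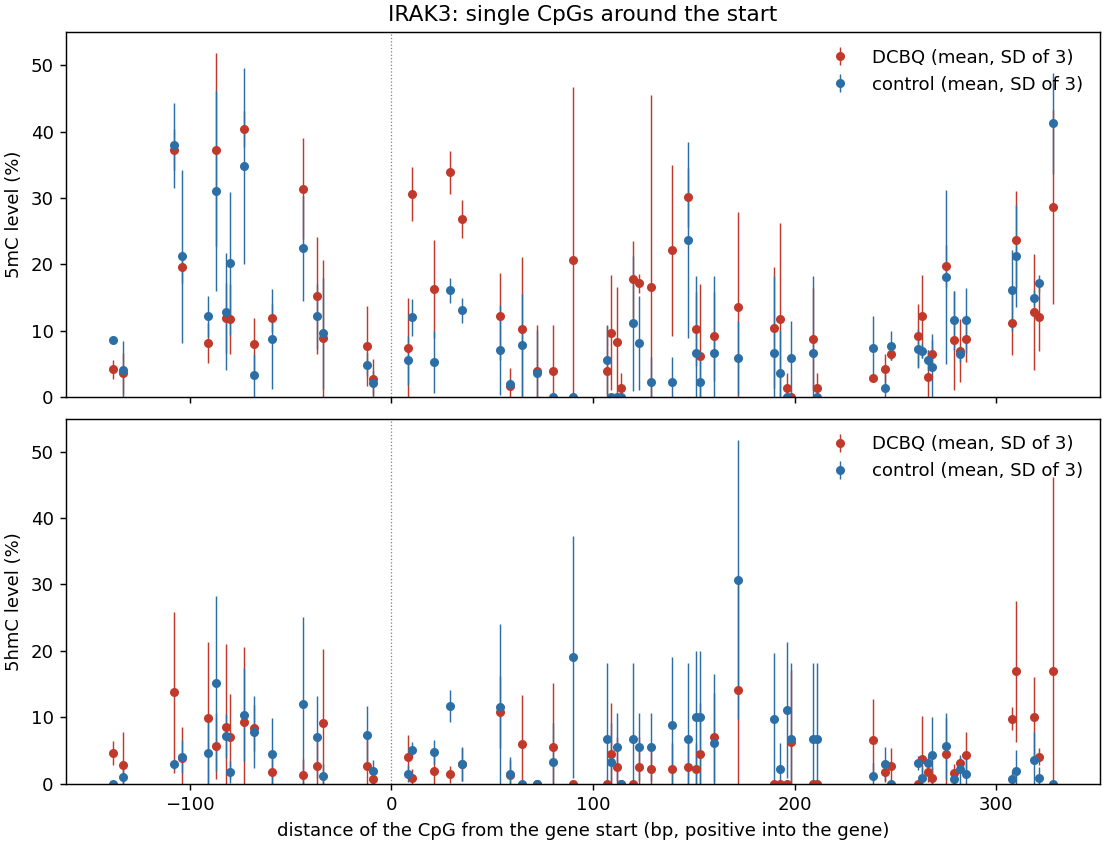
5mC (top) and 5hmC (bottom) level (%) of single CpGs around the IRAK3 start by distance in bp, as the mean with SD of 3 DCBQ samples and of 3 controls. At 10, 29 and 35 bp the DCBQ means of 30.6%, 33.9% and 26.9% 5mC lie above the control means of 12.0%, 16.1% and 13.1%, while many other CpGs have SD bars that overlap.

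The body of IRAK3 averaged 71.5% ± 0.208 in DCBQ and 72.2% ± 0.601 in control cells (SD, n = 3 each), with overlap. It is interrupted by 9 CpGs from 66235387 to 66235434 that were nearly unmethylated, at 0.793% in DCBQ and 1.09% in control cells, just past the pseudogene RBMS1P1 (66233016 to 66235226). At 4 CpGs from 66242990 to 66243066, 5hmC read 7.70%, 7.39% and 6.72% in DCBQ samples and 0.0%, 3.17% and 4.36% in controls, without overlap. The 5mC of these 4 CpGs averaged 83.9% in DCBQ and 89.6% in control cells and overlapped.

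A total of 3 short motifs was looked for on both strands of the 300-base RefSeq promoters of the 4 genes that had one. The E-box CACGTG occurred in IRAK3, 70 bp upstream, and in 7.26% of 35116 promoters. The CpG inside it, at 68 bp upstream, read 4.1%, 7.7% and 12.0% 5mC in DCBQ samples and 0.0%, 3.3% and 6.5% in controls, with overlap. The SP1 box GGGCGG was in all 4 and in 44.95% of promoters, and the cyclic AMP response element TGACGTCA was in none of the 4 and in 1.85%. Each of these motifs holds a CpG, the first matches of the E-box and the SP1 box in IRAK3 do not overlap, and a match describes letters in the window, not binding.

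IRF3 (chromosome 19, 49659572 to 49665857), the transcription factor activated downstream of STING, MAVS and TRIF, had unmethylated CpGs at its start. The stand-in start, which overlaps BCL2L12, read 3.62%, 3.77% and 3.69% 5mC in DCBQ samples and 3.42%, 4.98% and 2.88% in controls, with overlap (limma adjusted p = 0.991). 5hmC there read 0.981%, 1.12% and 1.27% in DCBQ samples and 2.05%, 1.34% and 2.18% in controls. All DCBQ samples lay below all controls (difference -0.74 points, limma SE 0.347, adjusted p = 0.961), as did 4.25% of all starts, with 5.67% above. In the IRF3 body 5hmC read 1.15%, 1.21% and 1.35% in DCBQ samples and 2.56%, 1.90% and 1.51% in controls, also lower without overlap (difference -0.75 points, limma SE 0.316, adjusted p = 0.929).

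The 5hmC difference at the IRF3 start lay outside its unmethylated core. Within the core of 34 CpGs, from 227 bp upstream to 244 bp past the start, 5hmC averaged 0.867% in DCBQ and 0.598% in control cells, with overlap. At 4 CpGs from 916 to 863 bp upstream it read 1.97%, 2.43% and 5.46% in DCBQ samples and 17.1%, 8.80% and 11.9% in controls. Those groups were apart, and 5mC at the same CpGs overlapped, at 27.4% in DCBQ and 25.2% in control cells. The largest mean difference in 5hmC among separated CpGs was in this group, 873 bp upstream, where the groups nearly touched, with 1.69%, 0.0% and 8.11% in DCBQ samples and 38.7%, 8.47% and 25.8% in controls. For 5mC it was 7660 bp past the start, beyond the far end of the gene, with 83.3%, 92.9% and 77.8% in DCBQ samples and 95.2%, 100% and 100% in controls.

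IRF7 (chromosome 11, 612555 to 615950) encodes the interferon-inducible factor that amplifies interferon production. Of its 150 CpGs, 12 (8%) had lower 5mC in DCBQ without overlap and 2 (1.33%) had higher. Over all CpGs these shares were 4.32% and 3.11%. Its body, with 68 CpGs, read 54.1%, 49.6% and 55.1% in DCBQ samples and 59.7%, 55.5% and 59.6% in controls. All DCBQ samples lay below all controls, by -5.37 points (limma SE 1.83, unadjusted p = 0.0262, adjusted p = 0.563). The gap was narrow, between 55.1% in a DCBQ sample and 55.5% in a control. Its start, with 63 CpGs, read 21.4%, 20.4% and 19.5% in DCBQ samples and 21.1%, 21.1% and 21.3% in controls, with overlap (limma adjusted p = 0.895).

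Along IRF7, 5mC was low from 108 bp upstream to 372 bp past the stand-in start, where 49 CpGs averaged 3.18% in DCBQ and 3.41% in control cells. A transition of 48 CpGs followed, from 616 to 1104 bp, with 43.4%, 36.2% and 44.2% in DCBQ samples and 49.5%, 43.6% and 48.6% in controls. The groups overlapped by a narrow margin over that stretch. The CpG 702 bp past the start (position 615248) read 22.2%, 20% and 30% in DCBQ samples and 64.3%, 33.3% and 41.7% in controls. Its 22.4-point difference was the largest of the separated CpGs of IRF7. A cluster of 19 CpGs at the far end (611583 to 611880), inside the neighbouring gene PHRF1, read 90.3%, 90.6% and 89.6% in DCBQ samples and 91.7%, 90.7% and 92.2% in controls, without overlap.

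The 5hmC of the IRF7 body read 4.18%, 10.8% and 11.4% in DCBQ samples and 7.07%, 6.71% and 3.21% in controls. The mean was higher in DCBQ by 3.12 points (limma SE 2.25, adjusted p = 0.978), but 1 DCBQ sample lay among the controls. The difference was 5.42 points without DCBQ replicate 1, 1.84 without DCBQ replicate 3 and 1.89 without control replicate 3. At 616 bp past the start 5hmC read 5.0%, 44.4% and 27.3% in DCBQ samples and 0 in all 3 controls. Of 149 IRF7 CpGs, 5 (3.36%) had higher 5hmC in DCBQ without overlap and 0 had lower, beside 2.8% and 2.59% of all CpGs.

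**Figure D4:**
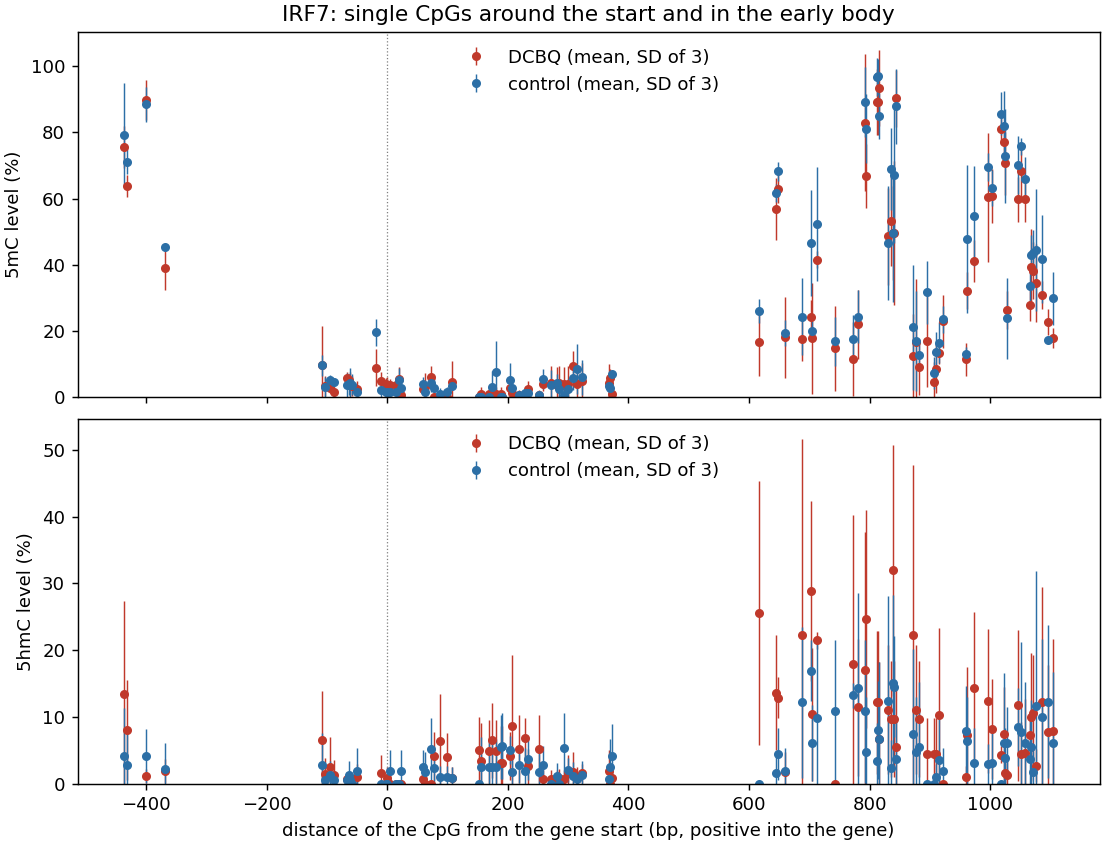
5mC (top) and 5hmC (bottom) level (%) of single CpGs of IRF7 by distance in bp from its stand-in start, as the mean with SD of 3 DCBQ samples and of 3 controls. From -108 to 372 bp the CpGs average 3.18% 5mC in DCBQ and 3.41% in control cells, and from 616 to 1104 bp the CpGs average 41.3% in DCBQ and 47.2% in control cells.

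Counted over all CpGs of the members, 5hmC separated the conditions about as often as across the genome. For 5mC, 31 of 899 CpGs (3.45%) were higher and 33 (3.67%) lower in DCBQ without overlap, beside 3.11% and 4.32% of all measured CpGs. The 5mC counts include STING1 and IRAK3, which were chosen by this contrast, so they are not read against the genome. For 5hmC, 18 of 883 (2.04%) were higher and 20 (2.27%) lower, beside 2.8% and 2.59%. By gene, the 5mC counts were 8 higher and 6 lower of 149 in IRAK3, 2 and 12 of 150 in IRF7, 6 and 4 of 144 in CGAS, 4 and 4 of 154 in MAVS, 4 and 2 of 47 in MYD88, 3 and 2 of 106 in TICAM1, 3 and 1 of 27 in STING1, and 1 and 2 of 122 in IRF3. The median CpG difference was -1.77 points in IRF7, beside -0.27 for all CpGs whose 5mC varied. In STING1 it was 1.5, but STING1 was chosen by its 5mC difference and nothing is read from that value. In the limma fit over single CpGs, 0 of 3419211 CpGs (0.0%) passed for 5mC and 3 of 3153081 (9.51e-05%) for 5hmC, at an adjusted p under 0.05 and a difference of at least 10 points. None of the 3 was in a member, whose lowest adjusted p for 5hmC was 0.781.

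The marks differed in opposite directions at most separated CpGs. 5hmC was lower at 26 of the 31 member CpGs where 5mC was higher without overlap (83.9%), against 85.0% of such CpGs over the genome. It was higher at 26 of the 33 member CpGs where 5mC was lower (78.8%), against 84.1%. The 5hmC levels may have been derived from the same libraries as the 5mC levels, so the marks are not treated as independent readings. Their opposite directions are therefore not read as a result about separate marks.

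**Figure D5:**
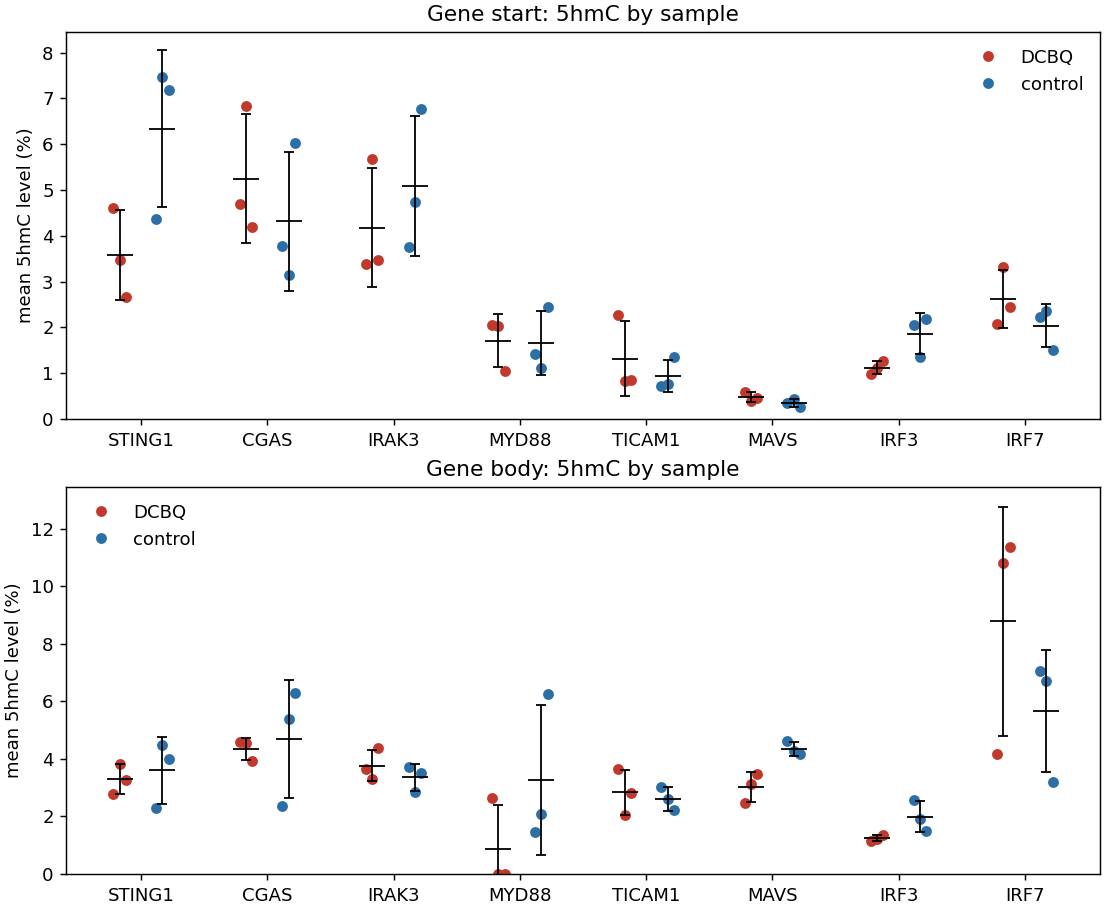
Mean 5hmC level (%) of each gene at its start (top) and in its body (bottom), with 1 point per sample, DCBQ left of control, and the mean with SD as black bars. STING1 in the upper panel is the 7 CpGs within 1000 bp of its higher-coordinate end. At the start the groups stand apart at IRF3 and in the body at MAVS and IRF3, both lower in DCBQ. Over all genes 4.25% of starts and 3.53% of bodies were lower in this way. The IRF7 body has 2 DCBQ samples above all controls and 1 among them.

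The wider pathways were read from 5 gene lists with 149 genes. The lists include the members. STING1, with its lower-coordinate window as the start, and IRAK3 thus count in them, although both were chosen by their 5mC difference. No listed gene was called by limma for either mark at its start or in its body. At the starts 5mC was lower in DCBQ for 16 of 21 genes of DNA sensing, 17 of 27 of Toll-like receptor signalling, 8 of 15 of RNA sensing, 16 of 26 of the IRF, NF-kB and interferon receptor group and 11 of 20 interferon-stimulated genes, beside 9171 of all 15364 starts. The median differences of these lists ran from -0.24 points for DNA sensing to -0.042 for RNA sensing, around the -0.10 of all starts. In bodies they ran from -0.59 points for interferon-stimulated genes to -0.11 for RNA sensing, around the -0.38 of all bodies.

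Of the listed genes with the smallest p, RIGI, the cytosolic RNA sensor upstream of MAVS, read 84.3%, 83.6% and 84.7% 5mC in its body in DCBQ samples and 87.4%, 88.5% and 87.9% in controls. That was lower without overlap, by -3.74 points (limma SE 0.54, adjusted p = 0.350). IFIH1, which encodes the other RNA sensor MDA5, read 0.727% in DCBQ and 1.51% in control cells at its start (limma adjusted p = 0.636). NFKB1, the p105/p50 subunit of NF-kB, read 3.20%, 3.00% and 3.12% at its start in DCBQ samples and 4.18%, 4.15% and 4.14% in controls, also apart (limma adjusted p = 0.469). STIM1, which encodes an endoplasmic reticulum calcium sensor that retains STING, read 0.688% in DCBQ and 1.69% in control cells (limma adjusted p = 0.636).

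On the higher side, the start of TLR9, a receptor for unmethylated CpG DNA, read 84.1%, 79.1% and 77.8% in DCBQ samples and 77.4%, 71.3% and 73.3% in controls (limma adjusted p = 0.718). TLR1 averaged 79.7% in DCBQ and 75.5% in control cells at its start, and PCBP2, which promotes degradation of MAVS, 1.57% in DCBQ and 1.09% in control cells (limma adjusted p = 0.713 and 0.730). Among bodies, REL averaged 84.8% in DCBQ and 81.6% in control cells, STAT2 87.3% in DCBQ and 83.9% in control cells and CASP8 78.6% in DCBQ and 77.6% in control cells (limma adjusted p = 0.506, 0.545 and 0.586). BST2 averaged 78.7% in DCBQ and 82.0% in control cells and IKBKB 76.6% in DCBQ and 78.5% in control cells (limma adjusted p = 0.518 and 0.544). All of these were without overlap. Over all genes, 3.7% of starts were higher and 8.28% lower in this way, and 2.27% of bodies higher and 13.7% lower. These genes, like RIGI, IFIH1, NFKB1 and STIM1, were picked by their small p in this same contrast. Their separation is therefore not read as a result.

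For 5hmC, the interferon-induced gene IFITM3 averaged 3.69% in DCBQ and 7.90% in control cells over 6 body CpGs (limma adjusted p = 0.829). OASL averaged 6.31% in DCBQ and 2.34% in control cells at its start (limma adjusted p = 0.961). In bodies, TLR2 averaged 3.89% in DCBQ and 2.10% in control cells and CHUK 3.90% in DCBQ and 2.71% in control cells, while MAP3K7 averaged 1.95% in DCBQ and 3.42% in control cells and IFIT5 1.22% in DCBQ and 1.85% in control cells (limma adjusted p from 0.914 to 0.934). These, like RHBDF2 at its start with 0.354% in DCBQ and 0.719% in control cells, were without overlap. Over all genes, 5hmC was higher in this way at 5.67% of starts and 6.35% of bodies, and lower at 4.25% and 3.53%. The genes named were picked by their small p, so their separation is not read as a result. TOMM70, TLR1 and NFKBIA were also among the smallest p at starts and overlapped (limma adjusted p = 0.961).

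The starts most like that of IRAK3 in 5mC over the 6 samples, by root mean square difference, were RAMP2 at 0.973 points, KIT at 1.17 and CNR1 at 1.27. Those closest to the lower-coordinate window of STING1 were SLC27A1 at 0.976 points, then SEPTIN3 and WBP2NL, which share a window, at 1.11.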

How the data were processed

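Per the labels, RRBS and oxidative RRBS libraries were made from SV-HUC-1 DNA, and per the submitters' processing notes the named tools are BSMAP 2.90, Trim Galore and cutadapt and the build is hg38, with no roles given. The authors deposited a fraction (0 to 1) for each CpG and mark, of at least 5 reads per the file names, printed here as percent. The series' design text ties 5mC to RRBS and 5hmC to oxidative RRBS; the sources used here do not say how the levels were derived. No depth is listed. Gene positions came from RefSeq (GRCh38.p14), and all 320801 measured positions inside promoter sequences fell on the C of a CpG.

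Members and lists were chosen with earlier results of these data known. Units with at least 5 CpGs were fitted with limma 3.58.1 in R 4.3.3 on the untransformed level, with a mean-variance trend, 3 DCBQ against 3 control samples, Benjamini-Hochberg adjusted over the table. The fit was tested on simulated data made from 5mC starts, where it recovered 97% of changes of 15 points and 51% of 5 points. On data made from 5hmC starts it recovered 95% and 17%. False calls numbered 13 for 5mC and 5 for 5hmC. Smaller changes were not simulated, so these rates do not cover differences of the size seen at the tested member starts. Clusters are runs of at least 3 CpGs with gaps up to 200 bp. Named were all 8 members, the 3 listed genes per direction with the smallest p (some are not reported here), and the CpGs with the largest separated differences (3 per direction for STING1 and IRAK3, 1 per mark for others); other CpGs, the clusters and the STING1 window were chosen after their values were seen. Other numbers came from Python 3.11.15, numpy 2.4.6, pandas 2.3.3 and scipy 1.17.1, and plots from matplotlib 3.10.9.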

Additional observations from a re-analysis of the deposited data

How the results depend on the processing

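Depth is unlisted, so a coverage minimum could not be tried. For starts, bodies and single CpGs, the counts of calls stayed at the reported value except as follows. 5mC starts gave 1 call with no minimum of CpGs, and 5hmC starts 1 with an arcsine transform. The 3 single CpGs called for 5hmC became 0 with no trend, 0 with the replicate block and 0 to 0 when 1 sample was left out. Same-numbered samples did not deviate together (correlations -0.044 to 0.017), which cannot show whether they were handled together. The replicate block gave 0 calls for starts, bodies and single CpGs of both marks. Centring on the sample median moved the median difference of all units from -0.10 to 0.065 points for 5mC starts and from -0.38 to 0.15 for 5mC bodies.

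Of 451 alternative values of the members' differences, 424 kept the reported direction and 27 had the opposite one. The CpG minimums, the fit with no trend and the replicate block cannot change a difference, so part of the 424 was fixed in advance. The 451 also include STING1 and IRAK3 5mC, by which these genes were chosen. None of these units was called or, for STING1 and IRAK3 5mC, tested. Sizes could shift within a direction. The cause was not tested. With a window of 1000 bp on both sides, CGAS starts differed by 0.560 points for 5mC and -0.231 for 5hmC, and with 500 bp the IRF3 start by 0.269 for 5hmC. Centring gave 0.125 for the MAVS start, 0.104 for the IRF3 start and 0.320 for the TICAM1 body, all 5mC. The median over CpGs gave 0.377 for the STING1 body and -0.044 for the IRAK3 body, both 5hmC. Leaving out 1 sample gave ranges of -2.02 to 0.534 for the CGAS start, -0.113 to 0.0184 for the MAVS start, -0.503 to 0.547 for the IRF3 start and -0.566 to 0.284 for the TICAM1 body in 5mC. In 5hmC the ranges were -0.225 to 0.445 for the MYD88 start, -0.102 to 0.614 for the TICAM1 start, -0.962 to 0.146 for the STING1 body, -1.50 to 0.461 for the CGAS body and -0.173 to 0.613 for the TICAM1 body. With the median over CpGs the STING1 5mC values were -1.20 at the lower-coordinate window and -1.75 in the body, and the IRAK3 5mC body gave 0.733. The STING1 window at the higher-coordinate end was added after the data were seen.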
